A study of Mus musculus with 6 samples.

Results

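The water barrier of the epidermis is made of lipid sheets that fill the spaces between the dead cells of the stratum corneum. Keratinocytes of the upper layers make ceramides from a sphingoid base and a fatty acid, lengthen and hydroxylate some of those fatty acids, join linoleate to their far end, and load glucosylceramide and sphingomyelin into lamellar bodies. Lipoxygenases then oxidise the linoleate, enzymes of the extracellular space release the free ceramide, and ceramidases break ceramide down again. The genes described here are 35 genes of that pathway, taken by symbol from a deposited table of 55487 genes. A row was matched for 34 of them, and Sts, the steroid sulfatase gene, was not analysed here.

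Gene expression had been measured by RNA-seq in 6 libraries of whole dorsal mouse skin from day 2. The 3 control and 3 DPCP libraries differed by treatment, DPCP (diphenylcyclopropenone) being a contact sensitizer that provokes an allergic reaction in skin, and the study concerns hair regrowth after such a reaction. The labels name no strain, age, dose or vehicle, do not say what control skin received, and do not say whether the 3 libraries of a group came from separate animals, so the p-values measure the spread between these libraries, which may in part be technical. Library totals ran from 28346992 to 38846787 counts, and levels are given as CPM, a count relative to the library's total after TMM scaling. On the leading axis of a principal component analysis, which held 81.3% of the variance, DPCP replicate 1 (39.8) lay nearer to the control libraries (−53.7 to −52.5) than DPCP replicates 2 and 3 did (61 and 58.2). The labelled tissue was checked by its keratins, with Krt14 at 4776 ± 396 CPM (SD, n = 3) and Krt10 at 5919 ± 1143 CPM in control skin.

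All 34 matched genes had enough counts to be tested. In DPCP skin 10 of them were higher, 12 were lower and 12 were not called by edgeR's quasi-likelihood test at a Benjamini-Hochberg adjusted p under 0.05 over all genes. The called share was 64.7%, beside 46.1% of the 18259 genes tested, and beside 22.8% called higher and 23.3% called lower. The median log2 fold change of the 34 genes was −0.01, as it was over all tested genes, and the median size regardless of direction was 0.54 against 0.41. Changes of at least 2-fold were found for Degs2 and Sult2b1 among the higher genes (7.89% of all tested genes) and for Alox12e, Aloxe3, Cers5 and Acer1 among the lower ones (9.12%). The 3 DPCP libraries lay all above the 3 control libraries in 10 genes (28.6% of all tested genes did so) and all below them in 12 genes (29.4%). These 22 genes make 64.7% of the 34, beside 58.0% of all tested genes.

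**Figure D1:**
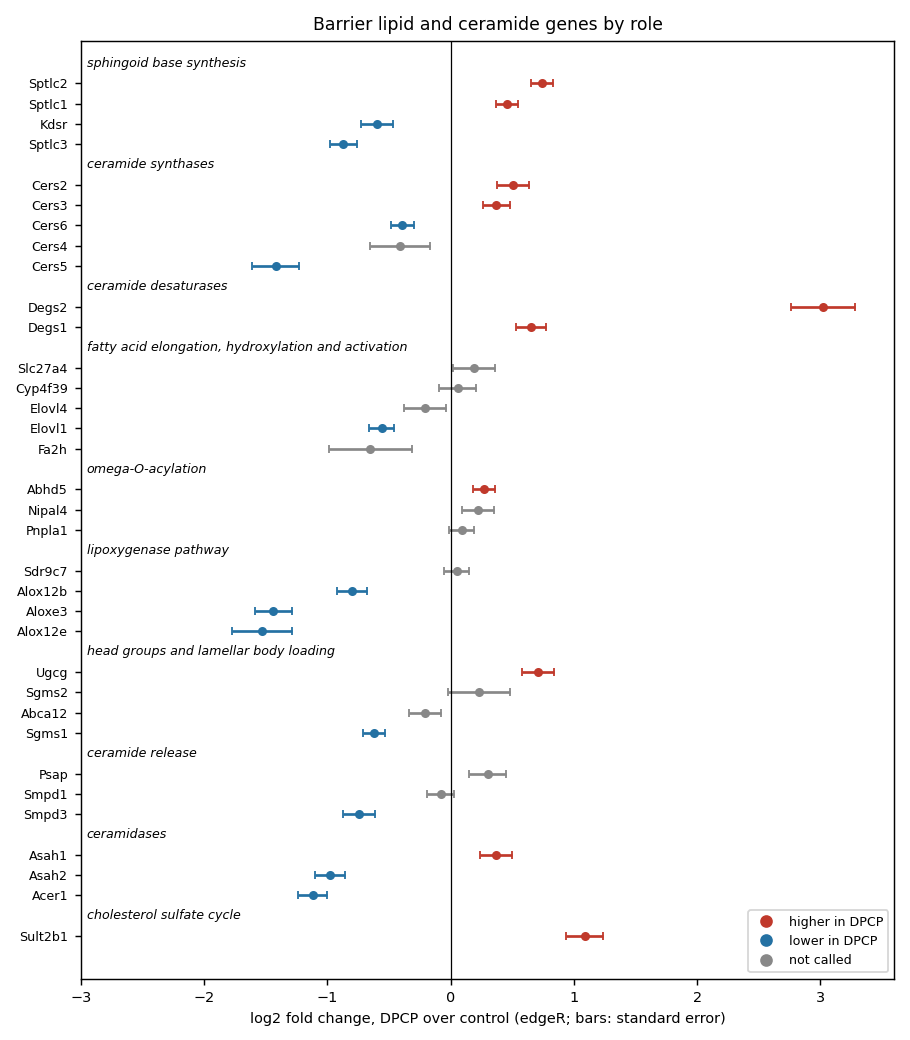
Log2 fold change of DPCP over control skin (horizontal axis) for the 34 matched genes grouped by role. Points are edgeR estimates, bars are standard errors, red genes were called higher and blue genes lower. Most roles hold genes on both sides of 0, while the 3 lipoxygenase genes lie between −1.53 and −0.80.

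Genes of the granular layer, where this pathway is most active, moved in both directions in the same libraries. The summed level of 22 granular keratinocyte genes was 24413 to 33684 CPM in control and 13351 to 15250 CPM in DPCP libraries, with 6 members higher, 11 lower and 5 not called. Of 11 basal keratinocyte genes 5 were higher, 3 lower and 3 not called, and their sum was 14481 to 17136 CPM in control and 26694 to 30460 CPM in DPCP libraries. Krt14, the main keratin of the basal layer, rose to 17426 ± 1233 CPM and Krt10, a keratin of the layers above, fell to 1020 ± 287 CPM (SD, n = 3). The rise of Krt14 alone was as large as that of the basal sum, so the sum does not describe the other basal genes. In the granular list the members with the highest mean level were the keratins Krt10, Krt77 and Krt1. Krt10 is not confined to the granular layer, so that sum does not describe the granular layer alone. Some members of both lists moved against the sum of their list. Log2 fold changes ran from −4.56 to 1.72 in the granular list and from −1.77 to 2.0 in the basal list. The sum of 11 genes shared by all epithelial cells, such as the desmosome gene Dsp, was 9726 to 11971 CPM in control and 11318 to 13476 CPM in DPCP libraries, and 8 of these genes were not called. The sum of 12 neutrophil genes went from 149 to 176 CPM in control to 563 to 1444 CPM in DPCP libraries, with 8 of the 9 tested members higher and 1 lower. The members with the highest mean level were S100a9, S100a8 and Il1r2, and which cells their RNA came from was not tested. The neutrophil genes Ngp, Ltf and Ly6g had too few counts to be tested, and Ngp was at 0 in all control libraries. Of 10 macrophage genes 4 were higher and 6 not called (sums of 1983 to 3370 and 3265 to 5725 CPM), and of 10 dermal adipocyte genes 1 was higher, 3 lower and 6 not called (2460 to 2693 and 2167 to 2540 CPM). The part of these shifts in the results below was not tested, and in whole skin fewer cells of a type and less RNA per cell cannot be told apart.

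Genes of the first step of the pathway moved in opposite directions. Serine palmitoyltransferase, which joins serine to a fatty acid and sets the rate of sphingolipid synthesis, needs the subunit SPTLC1 together with either SPTLC2 or SPTLC3. Sptlc2 (chromosome 12, 87305058 to 87388355, minus strand, GRCm38) was at 82.9, 80.1 and 81.2 CPM in the control libraries and at 120, 147 and 140 CPM in the DPCP libraries. The control values lay within 3 CPM of each other, and every DPCP library was above them (log2 fold change 0.74 ± 0.09, SE, edgeR adjusted p = 0.000454). Sptlc3 (chromosome 2, 139493913 to 139637674, plus strand) was at 129, 103 and 135 CPM in control and at 71.7, 64.2 and 64.3 CPM in DPCP libraries. Here all DPCP libraries were below control (−0.87 ± 0.11, edgeR adjusted p = 0.000496).

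Within each library the level of Sptlc3 per base of exon was 4.42, 3.67 and 4.75 times that of Sptlc2 in control and 1.71, 1.25 and 1.31 times in DPCP skin. The 2 groups did not overlap, and the exact permutation test (two-sided) gave p = 0.1, the smallest that 3 libraries against 3 allow. Sptlc3 thus made up 80.9% ± 2.07 (SD, n = 3) of the summed per-length level of the pair in control and 58.4% ± 4.08 in DPCP skin. The deposited exon lengths, 8115 bases for Sptlc2 and 2845 for Sptlc3, enter these shares. In DPCP skin the lead of Sptlc3 rests on them. Sptlc1, the shared subunit, rose from 89.5 to 109 CPM in control libraries to 130 to 140 CPM in DPCP libraries (0.46 ± 0.09, edgeR adjusted p = 0.00459). Kdsr, the reductase of the next step, fell from 59.6 to 69.7 CPM to 37.7 to 50.7 CPM (−0.60 ± 0.13, edgeR adjusted p = 0.00528).

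The stretches before the starts of 4 genes are printed because they carry the main contrasts: the 2 catalytic subunits that moved apart, the gene with the largest rise (Degs2) and a ceramidase gene that fell (Acer1). Each is the 250 bases before the RefSeq start on GRCm38.p6, 5′ to 3′ on the gene's strand, and that start lies 0 to 9 bases from the gene's start in the deposited table. Capitals mark matches to the motifs searched, of which the Degs2 and Acer1 stretches hold none.
Sptlc2, chr12:87388356-87388605, minus strand: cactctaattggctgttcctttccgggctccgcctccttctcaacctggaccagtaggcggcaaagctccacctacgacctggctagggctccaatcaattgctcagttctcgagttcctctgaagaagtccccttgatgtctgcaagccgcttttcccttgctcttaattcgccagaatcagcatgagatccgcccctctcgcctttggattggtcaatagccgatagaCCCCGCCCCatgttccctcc
Sptlc3, chr2:139493663-139493912, plus strand: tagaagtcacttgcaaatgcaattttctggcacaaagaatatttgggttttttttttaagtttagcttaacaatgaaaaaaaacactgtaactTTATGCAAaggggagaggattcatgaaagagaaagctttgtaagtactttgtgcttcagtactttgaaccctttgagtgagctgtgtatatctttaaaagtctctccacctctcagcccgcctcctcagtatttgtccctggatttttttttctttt
Degs2, chr12:108702307-108702556, minus strand: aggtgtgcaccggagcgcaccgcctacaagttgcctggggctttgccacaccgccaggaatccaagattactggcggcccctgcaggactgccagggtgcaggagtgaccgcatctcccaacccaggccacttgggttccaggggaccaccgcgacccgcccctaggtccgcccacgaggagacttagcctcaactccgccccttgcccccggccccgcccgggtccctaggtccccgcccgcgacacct
Acer1, chr17:56982127-56982376, minus strand: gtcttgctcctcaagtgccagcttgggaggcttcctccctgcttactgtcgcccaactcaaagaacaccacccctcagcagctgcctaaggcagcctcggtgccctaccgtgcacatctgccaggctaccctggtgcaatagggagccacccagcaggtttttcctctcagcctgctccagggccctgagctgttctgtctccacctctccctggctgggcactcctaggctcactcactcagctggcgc

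The motifs were searched on both strands in windows of 300 bases (250 before to 50 after the RefSeq start), which were at hand for 30 of the 34 genes. The SP box GGGGCGGGG was found in 6 of the 30 genes and in 11.4% of all 32851 windows, and the match in Sptlc2 begins 20 bases before the start. The C/EBP motif TTGCNNAA was found in 4 genes and 10.8% of windows, and the match in Sptlc3 begins 157 bases before the start. The KLF box GGGCGTGG was found in 7 genes (3 of them lower in DPCP skin, 1 higher and 3 not called) and in 5.33% of windows. The AP-1 motif TGANTCA was found in 5 genes and 7.81% of windows, and the GRHL motif AACNNGTT in 1 gene and 4.2% of windows. The direct repeat with a spacing of 1 base (DR1) bound by nuclear receptors was in 13 of all windows and in none of these genes. Several genes have more than 1 window, so their chance of a match is higher than that of a single window. A match describes the letters of a window and is not a measured binding site.

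Ceramide synthases join the sphingoid base to a fatty acyl chain, each with its own preference for chain length, CERS3 being the one that makes the ultra-long ceramides of the barrier. Cers5 (chromosome 15, 99734881 to 99772885, minus strand) was at 295, 183 and 286 CPM in control and at 110, 94.4 and 81.1 CPM in DPCP libraries. Control replicate 2 was the lowest control library, and still lay above all DPCP libraries (log2 fold change −1.42 ± 0.19, SE, edgeR adjusted p = 0.000551). Cers3 was at 109, 84.1 and 101 CPM in control and at 122, 137 and 122 CPM in DPCP libraries (0.37 ± 0.11, edgeR adjusted p = 0.0231). This rise was small, and without control replicate 2 or DPCP replicate 2 it was not called (edgeR adjusted p = 0.0536 and 0.0763). Cers2, the synthase of very-long-chain ceramides in most tissues, was at 55.4, 63.0 and 56.3 CPM in control and at 67.3, 93.7 and 88.2 CPM in DPCP libraries (0.51 ± 0.13, edgeR adjusted p = 0.0117). Cers6, a synthase of shorter ceramides like Cers5, fell from 53.7 to 55.6 CPM to 36.7 to 44.3 CPM (−0.39 ± 0.09, edgeR adjusted p = 0.00998).

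The make-up of the synthase family differed between the groups accordingly. Levels of different genes are compared only as TPM (counts per exon length, scaled to the same total in each library) within a library. Cers5 made up 55.3%, 44.9% and 52.7% of the 5 synthases' summed TPM in the control libraries and 28.8%, 24.7% and 23.1% in the DPCP libraries. Cers3 made up 20.3% to 22.4% in control and 34.8% to 39.1% in DPCP skin, which made it the leading synthase there in place of Cers5. The family's summed TPM fell from 403 ± 50.8 to 263 ± 23.6 (SD, n = 3). The TPM of Cers3 itself went from 87.1 ± 9.47 to 97.4 ± 3.63. Unlike CPM, TPM was not TMM-scaled. In CPM the family's sum went from 656 ± 90.4 to 491 ± 41.6 and Cers3 from 98.0 ± 12.7 to 127 ± 8.8. The share of Cers6 was 4.48% ± 0.676 (SD, n = 3) in control and 4.47% ± 0.259 in DPCP skin, although its own level fell, and the ratio of Cers6 to Cers5 was higher in each DPCP library than in each control library (exact permutation p = 0.1, two-sided). The ratio of Cers3 to Cers2 overlapped between the groups (exact permutation p = 0.8), with a log2 difference of −0.12. With 1 library left out it ran from −0.28 (without control replicate 2) to −0.00 (without control replicate 1). The table gives Cers4 and Cers6 12264 and 8875 exon bases, against 3256 to 3676 for the other synthases, and this length enters their per-length levels.

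**Figure D2:**
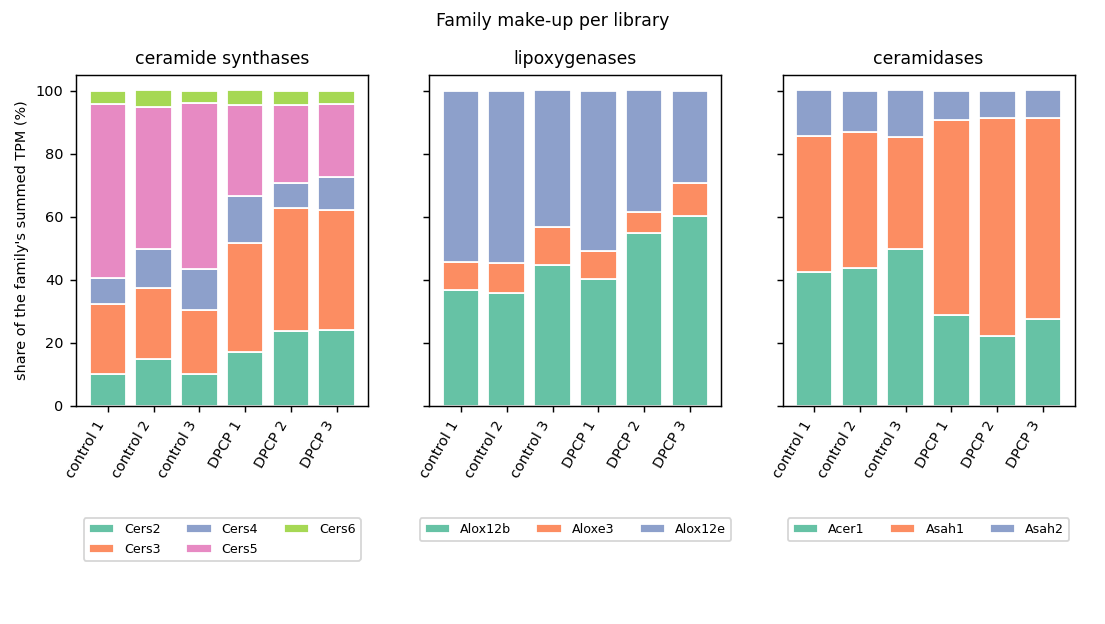
Share of each family's summed TPM (vertical axis, percent) taken by each gene in the 6 libraries, for ceramide synthases, lipoxygenases and ceramidases. Cers5 takes 44.9% to 55.3% of the synthases in control and 23.1% to 28.8% in DPCP libraries, and Asah1 takes 35.5% to 43.2% of the ceramidases in control and 62% to 69.3% in DPCP libraries.

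Both dihydroceramide desaturase genes rose, and Degs2 had the largest rise of the 34 genes. DEGS1 puts the double bond into ordinary ceramides, whereas DEGS2 can also add a hydroxyl group and so makes the phytoceramides found in skin. Degs2 (chromosome 12, 108678711 to 108702315, minus strand) was at 7.29, 5.97 and 10.9 CPM in control and at 47.5, 66.1 and 83.4 CPM in DPCP libraries. The lowest DPCP library was several times the highest control library, and the fitted difference was 8.14-fold (log2 fold change 3.02 ± 0.26, SE, edgeR adjusted p = 6.8e-05). Degs1 was at 182, 151 and 208 CPM in control and at 281, 286 and 282 CPM in DPCP libraries (0.65 ± 0.12, edgeR adjusted p = 0.00252). The 3 DPCP libraries agreed more closely in Degs1 than the control libraries did.

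In control skin Degs2 had the lowest per-length level of the 34 genes, at 8.98 ± 2.61 TPM (SD, n = 3), and in DPCP skin it stood at place 18 with 63.7 ± 19.5 TPM. It made up 3.82% to 4.99% of the summed TPM of both desaturase genes in control and 14.5% to 22.9% in DPCP libraries. Its ratio to Degs1 did not overlap between the groups (exact permutation p = 0.1, two-sided, the smallest possible), and the ratio was 5.18 times as large in DPCP skin. Exons of Degs2 share 10.8% of their bases with Evl on the other strand, and reads in shared bases were not counted.

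**Figure D3:**
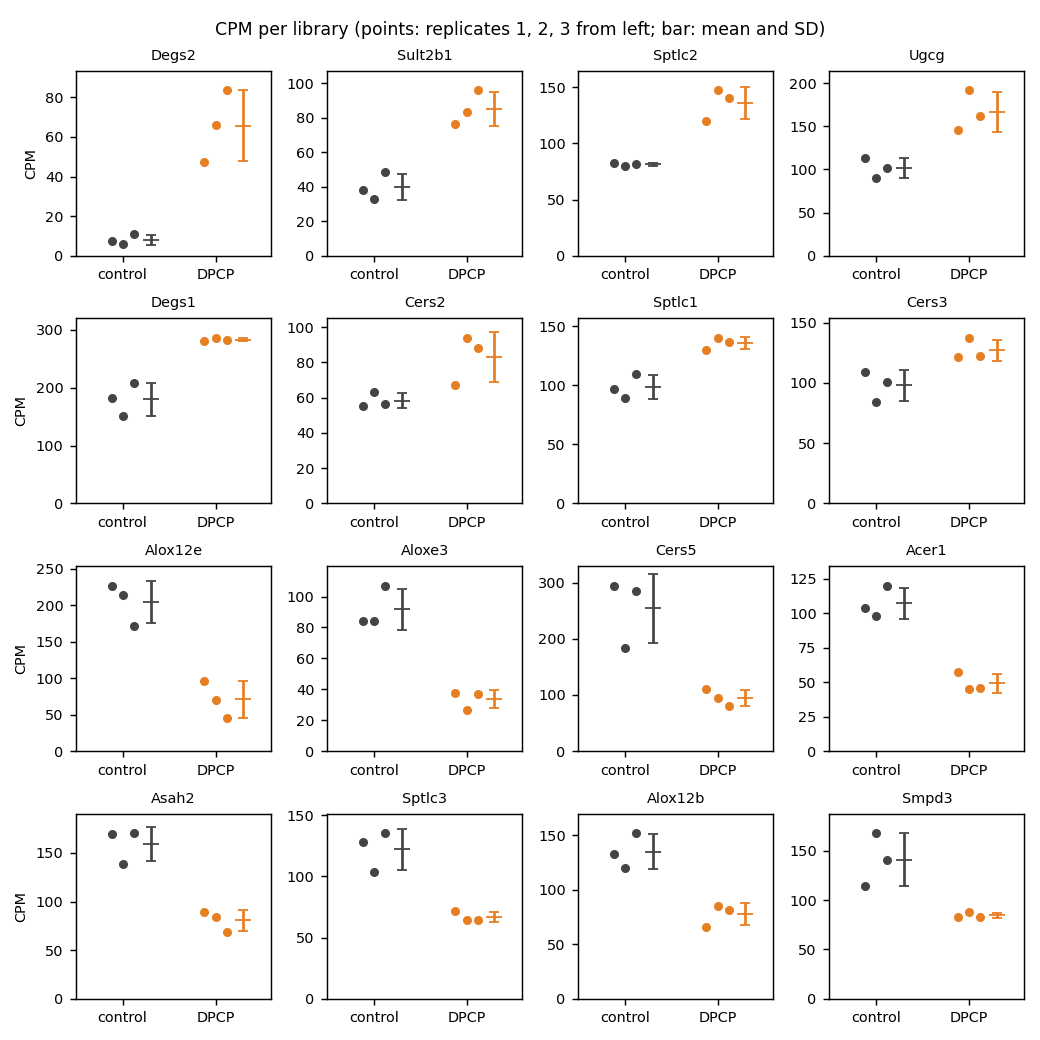
CPM in each library (vertical axis, from 0) for the 8 genes with the largest rise and the 8 with the largest fall among those called. Points are replicates 1 to 3 from left to right, and the bars give mean and SD. The control and DPCP points do not overlap in any of the 16 panels, whose genes were picked for their calls. The same holds for 58.0% of all tested genes.

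The genes that lengthen, hydroxylate and activate fatty acids were mostly not called. Elovl4, which makes the ultra-long chains of acylceramides, had the highest per-length level of the 34 genes in both groups and was at 1351, 1304 and 1927 CPM in control and at 1550, 1222 and 1198 CPM in DPCP libraries (log2 fold change −0.21 ± 0.17, SE, edgeR adjusted p = 0.358). Elovl1, an elongase of saturated very-long chains, was the only called member of this role, at 553, 480 and 592 CPM in control and 355, 369 and 377 CPM in DPCP libraries (−0.56 ± 0.10, edgeR adjusted p = 0.00238). The ratio of Elovl4 to Elovl1 was 2.2 to 2.93 in control and 2.87 to 3.93 in DPCP libraries, and the ranges overlapped (exact permutation p = 0.2). Cyp4f39, the hydroxylase acting on the far end of ultra-long fatty acids, was at 80.4 to 115 CPM in control and 85.0 to 112 CPM in DPCP libraries. Slc27a4, which activates very-long-chain fatty acids as coenzyme A esters, was at 179 to 258 CPM and 205 to 278 CPM.

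Fa2h and Cers4 varied more within the groups than most of the pathway. Fa2h, the 2-hydroxylase of ceramide fatty acids, was at 260, 269 and 417 CPM in control and at 325, 129 and 149 CPM in DPCP libraries. Cers4, a synthase gene whose loss in mice is known to cause hair loss, was at 151, 177 and 244 CPM in control and at 195, 106 and 131 CPM in DPCP libraries. In both genes DPCP replicate 1 lay within the control range, while the other DPCP libraries lay below it, and neither was called (log2 fold changes −0.65 ± 0.34 and −0.41 ± 0.24, SE, edgeR adjusted p = 0.15 and 0.195). Without DPCP replicate 1 both were called lower, at −1.18 and −0.68 (edgeR adjusted p = 0.00296 and 0.0251). The falls were smaller without control replicate 3, at −0.40 for Fa2h and −0.19 for Cers4, and without DPCP replicate 2, at −0.42 and −0.23, and neither gene was called there.

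Sebaceous gland genes were also mostly highest in DPCP replicate 1 among the DPCP libraries. This held for 13 of 14 markers, for 41.2% of the pathway genes described here and for 33.6% of all tested genes. The list's sum was 3338 to 4473 CPM in control and 5203 to 6342 CPM in DPCP libraries, with 1 member higher, 6 lower and 7 not called, and no marker at 0. The higher member was Fabp5, a fatty acid carrier also made by keratinocytes, which went from 502 ± 99.5 to 2926 ± 119 CPM (SD, n = 3). Without Fabp5, a sum formed after the values were seen, the other 13 markers together were at 3604, 2909 and 3858 CPM in control and at 3295, 2393 and 2548 CPM in DPCP libraries. The part of sebaceous gland RNA in the levels of Fa2h and Cers4 was not tested.

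**Figure D4:**
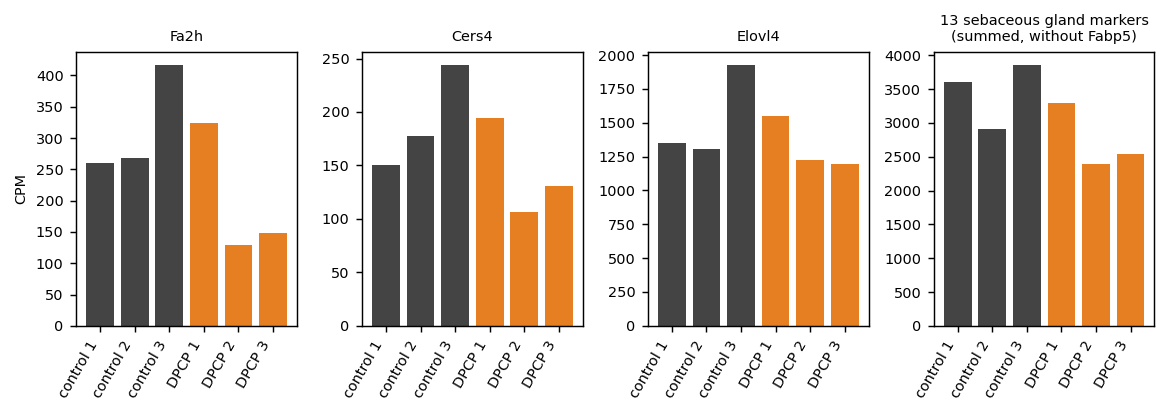
CPM per library (vertical axes, from 0) of Fa2h, Cers4 and Elovl4 and the summed CPM of 13 sebaceous gland markers, with control in grey and DPCP in orange. Fa2h, Cers4 and Elovl4 were chosen after their values were seen. In all 4 panels control replicate 3 is the highest library and DPCP replicate 1 is the highest of the DPCP libraries. The latter held for 41.2% of the pathway genes described here. The lowest control library is replicate 1 for Fa2h and Cers4, and replicate 2 for Elovl4 and the marker sum.

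Of 3 genes placed at the joining of linoleate to the ultra-long chain, 1 was called. Pnpla1, the transacylase of this step, was at 55.2, 50.7 and 62.2 CPM in control and at 57.4, 57.1 and 64.3 CPM in DPCP libraries, and the groups overlapped (log2 fold change 0.09 ± 0.10, SE, edgeR adjusted p = 0.497). Abhd5, its partner and a coactivator of lipases, rose by 0.27 ± 0.09 on the log2 scale from 106 ± 10.3 to 128 ± 3.23 CPM (SD, n = 3, edgeR adjusted p = 0.0404). That call was lost under 7 of 13 alternative settings (edgeR adjusted p of 0.0518 to 0.099), which were library totals alone, no count filter, and leaving out any 1 library other than control replicate 3. Nipal4, a membrane protein gene mutated in human ichthyosis, was at 97.5 to 125 CPM in control and 107 to 143 CPM in DPCP libraries (0.22 ± 0.13, edgeR adjusted p = 0.209), and it was called higher only without DPCP replicate 1 (0.34, edgeR adjusted p = 0.0472).

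The 3 lipoxygenase genes of the list all fell. ALOX12B and ALOXE3 act one after the other on the linoleate of acylceramides, a step without which the lipid envelope of the corneocyte does not form, and Alox12e encodes an epidermal 12-lipoxygenase of mice. Alox12e (chromosome 11, 70315610 to 70322628, minus strand) was at 227, 215 and 172 CPM in control and at 96.9, 69.8 and 46.1 CPM in DPCP libraries (log2 fold change −1.53 ± 0.24, SE, edgeR adjusted p = 0.00124). Aloxe3 (chromosome 11, 69125896 to 69149115, plus strand) was at 84.3, 83.9 and 107 CPM in control and at 37.4, 26.9 and 37.2 CPM in DPCP libraries (−1.44 ± 0.15, edgeR adjusted p = 0.000176). Alox12b, its neighbour on the same strand (69156989 to 69169792), was at 133, 120 and 152 CPM in control and at 65.9, 85.1 and 81.4 CPM in DPCP libraries (−0.80 ± 0.12, edgeR adjusted p = 0.00116). In none of the 3 genes did the groups overlap.

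The balance between the neighbours was compared within each library. The ratio of Aloxe3 to Alox12b per exon length was 0.241, 0.265 and 0.268 in control and 0.216, 0.12 and 0.174 in DPCP libraries, with no overlap (exact permutation p = 0.1, two-sided, the smallest possible). Its log2 difference of −0.64 was −0.41 without DPCP replicate 2. The ratio of Alox12e to Alox12b overlapped between the groups (log2 difference −0.78, exact permutation p = 0.2), and the difference was −0.46 without DPCP replicate 3. Of the summed per-length level of the 3 genes, Alox12e took 43.5% to 54.8% in control and 29.3% to 51% in DPCP libraries. Sdr9c7, the dehydrogenase that acts on the product of both lipoxygenases, was at 130 to 157 CPM in control and at 142 to 163 CPM in DPCP libraries (0.05 ± 0.10, edgeR adjusted p = 0.736).

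Head-group enzymes and the lamellar body transporter gave different pictures by gene. Ugcg, the glucosylceramide synthase that prepares ceramide for lamellar bodies, was at 114, 90.4 and 101 CPM in control and at 146, 191 and 162 CPM in DPCP libraries, all above control (log2 fold change 0.71 ± 0.13, SE, edgeR adjusted p = 0.00222). Abca12, which carries glucosylceramide into lamellar bodies and whose loss causes harlequin ichthyosis, was at 627, 475 and 645 CPM in control and at 502, 527 and 482 CPM in DPCP libraries. Those ranges overlapped (−0.21 ± 0.13, edgeR adjusted p = 0.209), and without control replicate 2 the gene was called lower (−0.32, edgeR adjusted p = 0.0328). Sgms1, a sphingomyelin synthase, fell from 104 to 119 CPM to 71.2 to 78.8 CPM (−0.62 ± 0.09, edgeR adjusted p = 0.000786). Its relative Sgms2 was at 20.2, 20.4 and 20.9 CPM in control and at 17.1, 35.8 and 19.1 CPM in DPCP libraries, so that DPCP replicate 2 alone stood above control. Without that library its log2 fold change of 0.23 became −0.18, and the log2 difference in the ratio of Sgms2 to Sgms1 went from 0.77 to 0.42.

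Of the genes that free ceramide from its precursors, 1 changed. Smpd3, the membrane-bound neutral sphingomyelinase, was at 115, 168 and 141 CPM in control and at 83.0, 87.6 and 83.0 CPM in DPCP libraries (log2 fold change −0.74 ± 0.13, SE, edgeR adjusted p = 0.00225). Smpd1, the acid sphingomyelinase, was at 146 to 189 CPM in control and 146 to 159 CPM in DPCP libraries (−0.08 ± 0.11, edgeR adjusted p = 0.609). The ratio of Smpd3 to Smpd1 was 0.477 to 0.733 in control and 0.333 to 0.364 in DPCP libraries, without overlap (exact permutation p = 0.1, two-sided). Psap, the precursor of the saposins that assist lysosomal lipid hydrolases, was the gene with the second highest per-length level in both groups, at 754 to 1037 CPM in control and 927 to 1179 CPM in DPCP libraries (0.30 ± 0.15, edgeR adjusted p = 0.126). It was called higher without control replicate 2 (0.48, edgeR adjusted p = 0.0234).

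Ceramidase genes split by type. Acer1, the alkaline ceramidase of epidermis (chromosome 17, 56953490 to 56982126, minus strand), was at 104, 97.7 and 120 CPM in control and at 57.2, 45.1 and 45.5 CPM in DPCP libraries, all below control (log2 fold change −1.12 ± 0.12, SE, edgeR adjusted p = 2e-04). Asah2, the neutral ceramidase, was at 169, 139 and 170 CPM in control and at 88.9, 84.1 and 68.6 CPM in DPCP libraries (−0.98 ± 0.12, edgeR adjusted p = 0.000423). Asah1, the acid ceramidase of lysosomes, rose from 119 to 147 CPM to 148 to 197 CPM (0.37 ± 0.13, edgeR adjusted p = 0.0395), with DPCP replicate 3 barely above the highest control library. Its call was lost in 6 of 13 alternative settings (edgeR adjusted p of 0.0559 to 0.136), which were upper-quartile factors, library totals alone, and leaving out control replicate 2 or 3 or DPCP replicate 1 or 2. Acer1 and Asah1 were at about the same per-length level in control skin (ratios of 0.985, 1.02 and 1.4), while in DPCP skin the ratio was 0.463, 0.318 and 0.43 (exact permutation p = 0.1, two-sided, the smallest possible). Acer1 shares 14.1% of its exon bases with a gene on the other strand, AC073683.1.

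Sult2b1, which makes cholesterol sulfate, a lipid that holds back the shedding of corneocytes, rose 2.13-fold. It was at 38.3, 33.2 and 48.4 CPM in control and at 76.2, 83.2 and 95.9 CPM in DPCP libraries, without overlap (log2 fold change 1.09 ± 0.15, SE, edgeR adjusted p = 0.000589). Of its exon bases 8.13% lie in genes of the other strand. Together, 12 ratios of related enzymes were compared, and 7 showed no overlap. Among single genes 58.0% of all tested ones showed none either, and no such share was formed for ratios. The 7 all had an adjusted p of 0.171 (exact permutation tests, Benjamini-Hochberg over the 12 ratios). This is above the threshold, which 3 libraries against 3 cannot reach.

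**Figure D5:**
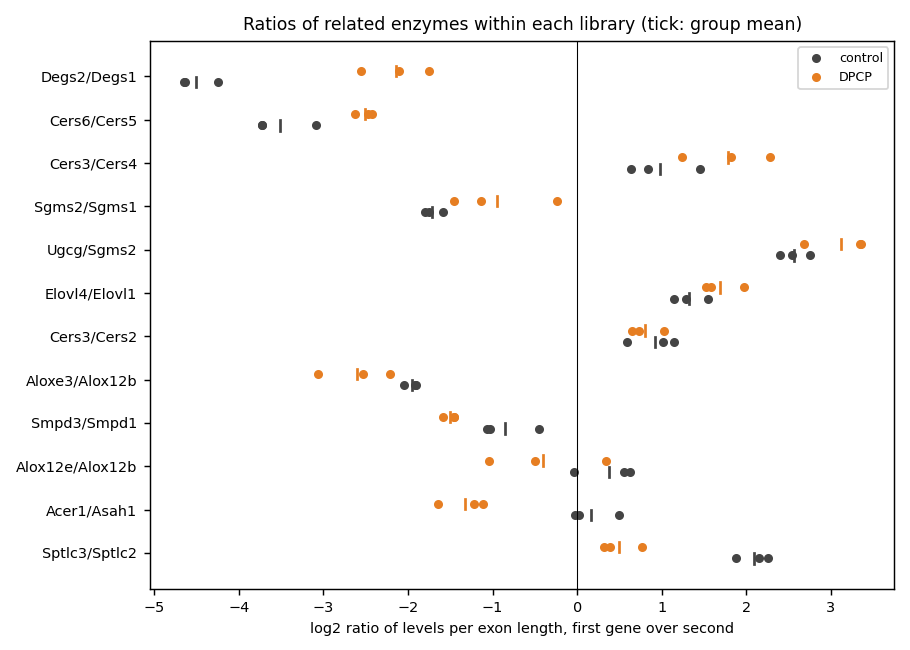
Log2 ratio of the per-length levels of 12 pairs of related enzymes (horizontal axis) in each library, with ticks at group means. The ratio of Degs2 to Degs1 has the largest upward difference (2.37) and that of Sptlc3 to Sptlc2 the largest downward one (−1.60).

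A wider list of 96 other genes of sphingolipid, fatty acid and barrier lipid metabolism gave 92 tested genes, of which 16 were higher, 30 lower and 46 not called. The called share of 50% is near the 46.1% of all tested genes, of which 22.8% were higher and 23.3% lower. Its median log2 fold change was −0.15. Among genes with a mean of at least 1 CPM, the largest falls were those of the stearoyl-CoA desaturase gene Scd3 (504 ± 126 to 53.2 ± 31.7 CPM, SD, n = 3), also a sebaceous gland marker, and of Alox12, a further lipoxygenase gene (28.5 ± 2.01 to 5.97 ± 0.966 CPM). Next came Cyp4f37 (12.8 ± 1.58 to 3.38 ± 1.80 CPM) and the secreted phospholipase gene Pla2g3 (16.0 ± 1.97 to 4.87 ± 0.132 CPM). With the same limit, the largest rises were those of Gla, the lysosomal alpha-galactosidase gene (7.74 ± 0.247 to 25.4 ± 6.95 CPM), Cyp4f18 (5.37 ± 2.03 to 13.7 ± 5.84 CPM), Smpdl3b (7.51 ± 0.604 to 18.4 ± 4.22 CPM) and the lipase inhibitor gene G0s2 (22.8 ± 6.55 to 44.6 ± 2.77 CPM).

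Several further genes of that list, chosen after their values were seen, stand beside the results above. Cers1, a synthase gene of mainly nervous tissue with a mean under 1 CPM, fell by 2.24 ± 0.37 on the log2 scale from 1.49 ± 0.533 to 0.311 ± 0.0642 CPM (SE and SD, n = 3, edgeR adjusted p = 0.00162). Sptssb, a small subunit that alters the chain preference of serine palmitoyltransferase, was at 0, 0 and 0.179 CPM in control and at 0.462, 1.31 and 1.39 CPM in DPCP libraries (edgeR adjusted p = 0.00654). Its better expressed relative Sptssa and the 3 Ormdl genes, which hold the enzyme back, were not called. Of these, Ormdl3 was near the threshold, with all DPCP libraries below control (log2 fold change −0.25 ± 0.09, SE, edgeR adjusted p = 0.0541). Of the other ceramidase genes, Acer2 fell by 0.69 ± 0.15 and Acer3 by 0.74 ± 0.11 on the log2 scale (SE, edgeR adjusted p = 0.00621 and 0.00114). The lipase genes Lipk, Lipm and Lipn, expressed in the outermost living keratinocytes, fell by 1.37 ± 0.19, 0.89 ± 0.14 and 1.51 ± 0.16 on the log2 scale (SE, edgeR adjusted p = 0.000601, 0.00114 and 0.000181).

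Among 28 transcription factors and receptors known to act on barrier genes, 7 were higher, 5 lower and 16 not called, a called share of 42.9% beside 46.1% of all tested genes. Klf4, a factor needed for the barrier, had the highest mean level, with 379 to 481 CPM in control and 401 to 430 CPM in DPCP libraries (log2 fold change −0.02 ± 0.11, SE, edgeR adjusted p = 0.87). Cebpa, a factor of keratinocyte differentiation, was at 295 to 384 and 264 to 327 CPM (edgeR adjusted p = 0.218). Stat3, a mediator of cytokine signals, rose from 173 to 210 CPM to 312 to 378 CPM (0.85 ± 0.11, edgeR adjusted p = 0.000454). The fatty acid receptor genes Ppard and Ppara, also chosen after their values were seen, differed in direction. Pparg, of the same list, is not described here. Ppard, whose product is known to respond to inflammation in keratinocytes, rose from 42.4 to 52.3 CPM to 112 to 149 CPM (log2 fold change 1.51 ± 0.13, SE, edgeR adjusted p = 6.13e-05), whereas Ppara fell from 8.99 to 12.3 CPM to 2.49 to 4.33 CPM (−1.74 ± 0.24, edgeR adjusted p = 0.000665). Rora, a nuclear receptor of differentiating keratinocytes, fell from 308 ± 33.9 to 124 ± 21.8 CPM (−1.31 ± 0.14, edgeR adjusted p = 0.000181).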

How the data were processed

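Raw read counts per gene were deposited as 1 table of 6 libraries, made with featureCounts 1.6.2 from Ensembl GRCm38 release 102, per the file headers. Its command set no option for strand or read pairs, so mates were counted singly on either strand and reads over exons of 2 genes were dropped. The submitters' processing notes also name Trimmomatic 0.36, HISAT2 2.2.1, StringTie 2.2.1 and DESeq2 1.34.0. The exon length in bases is the other deposited value used, per the file headers. Symbols came from a GENCODE annotation of the same build.

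Counts were tested with edgeR 4.0.16 (quasi-likelihood, TMM, filterByExpr, R 4.3.3) after a check on simulated data. CPM uses TMM-scaled totals, and TPM uses exon lengths without TMM scaling. These lengths enter each ratio and share, and they differ within families. Aloxe3 has 6397 exon bases and Alox12b 2431, and Asah2 has 11638 and Acer1 2429. Standard errors are the log2 fold change over the square root of F. Fuller values were given to the 8 largest called changes in each direction and to the 4 largest in each direction of the wider list. They were also given to the 3 regulators with the highest mean CPM. Some genes outside these rules, such as Fa2h, Abca12 and Pnpla1, have fuller values too. Marker lists are given by counts and sums, apart from genes such as Krt14, Krt10 and Fabp5. Members and lists were chosen with earlier results of these data known. Alternatives were other scalings, DESeq2 1.42.0, other filters, leaving out libraries and a replicate block.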

Additional observations from a re-analysis of the deposited data

How the results depend on the processing

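Over 13 alternatives the members called higher numbered 7 to 10 and those called lower 12 to 14. Of the 22 called members, 19 kept their call and direction under each alternative; the exceptions were Abhd5, Cers3 and Asah1. Among members not called, the sign turned for 4. Cyp4f39 was at −0.01 and Sdr9c7 at −0.03 with library totals alone. With 1 library left out, Cyp4f39 ran from −0.05 (without DPCP replicate 3) to 0.23, Sdr9c7 from −0.02 (without control replicate 2) to 0.10, Smpd1 from −0.13 to 0.05 (without control replicate 3) and Sgms2 from −0.18 (without DPCP replicate 2) to 0.43. Fa2h was also called lower without a count filter (−0.64, edgeR adjusted p = 0.0255). The replicate block used shared replicate numbers, which the labels tie to no animal or day, so the numbers were not taken as pairs. It gave 10 higher and 12 lower members, and 25 against 16 higher genes of the wider list. Deviations from the group means correlated at r = 0.062, 0.046 and 0.175 between same-numbered libraries, and at −0.212 to 0.144 between differently numbered ones. The cause of these changes was not tested. With 3 libraries a group, small differences such as that of Pnpla1 could not be resolved.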
